A study of Danio rerio with 3 samples.

Results

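The genes that cut, process and extend antigen receptor gene segments were followed in lymphocytes of lck:GFP zebrafish, a reporter line that makes green fluorescent protein under control of lck, the gene of a kinase of T cells. The members were taken by symbol, and 4 of the 31903 features matched: rag1 (ENSDARG00000052122), rag2 (ENSDARG00000052121), dntt (ENSDARG00000104792) and dclre1c (ENSDARG00000045704). Brightly fluorescent thymus cells, dim kidney marrow cells and dim scale cells, all of lck:GFP genotype, were sorted and sequenced as 1 droplet library per tissue. Tissue and sort brightness thus cannot be told apart between the thymus and the other libraries. The thymus library held 4574 cells, the marrow library 983 cells and the scale library 375 cells, and no cell barcode was shared between any pair of libraries. No treatment is named, and the labels give neither the age nor the number of fish behind a library.

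In V(D)J recombination a lymphocyte joins variable, diversity and joining segments into 1 working receptor gene. The Rag1 and Rag2 proteins form the enzyme that cuts beside the segments and leaves a sealed hairpin at each coding end. Artemis, the product of dclre1c, is a nuclease that opens the hairpins, and terminal transferase, the product of dntt, adds nucleotides without a template before the ends are joined. The ends are then sealed by non-homologous end joining, a repair pathway that most cells use. In mammals, the thymus recombines the beta chain gene in precursors that lack both coreceptors and the alpha chain gene in resting cells that carry CD4 and CD8.

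Levels below are unique molecular identifiers (UMIs, 1 per captured RNA molecule) of a gene per 1000000 UMIs of all genes, written CPM, with an exact Poisson 95% interval in brackets. Each tissue has 1 library and hence no replicate, so differences are given with counting intervals and without p-values. All intervals, and the exact intervals on ratios, cover counting error only. The thymus library held 12405147 UMIs (median 1370 per cell), the marrow library 4987653 (median 4044) and the scale library 1279044 (median 3178). The 14 matched T cell markers were all detected in each library and summed to 6135 CPM among thymus cells, 1884 CPM among marrow cells and 1747 CPM among scale cells. Other cell types were present: erythroid markers summed to 326 CPM among thymus cells and 11604 CPM among marrow cells, B cell markers to 2.18 CPM among thymus cells and 1157 CPM among marrow cells, and keratinocyte markers to 2147 CPM among scale cells. What these cells add to the differences below was not tested.

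All 4 genes were highest in the thymus. The cutting subunit gene rag1 stood at 3261 CPM in thymus cells (3230 to 3293) and at 1.40 CPM in marrow cells (0.56 to 2.89), and it had 0 UMIs in scale cells, for which 3 counts would be 2.35 CPM. That is 40456 UMIs in thymus cells against 7 UMIs in marrow cells, a ratio of 2324 (1128 to 5780). Against scale cells the lower end of the exact interval of the ratio was 1131, and 3 scale counts would give a ratio of 1390. The partner subunit gene rag2, which lies next to rag1 with 0 genes between them in the RefSeq annotation of GRCz12tu, stood at 109 CPM in thymus cells (103 to 115) and 1.203 CPM in marrow cells (0.44 to 2.62). The thymus level of rag2 was 90.7 times that of the marrow (41.55 to 247.5). In the scale rag2 too had 0 UMIs. The lower end of the exact interval of its thymus over scale ratio was 37.8, and 3 scale counts would give 46.5.

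The hairpin-opening nuclease gene dclre1c reached 147 CPM in thymus cells (140 to 154), against 4.41 CPM in marrow cells (2.76 to 6.68) and 6.255 CPM in scale cells (2.70 to 12.3). It was the one member with UMIs in every library. Its thymus level was 33.3 times that of the marrow (21.95 to 53.3) and 23.5 times that of the scale (11.9 to 54.5). The scale over marrow ratio of dclre1c, 1.42 (0.55 to 3.31), lay within counting error of 1. The terminal transferase gene dntt was rare even in the thymus, with 78 UMIs in 68 of 4574 cells, or 6.29 CPM (4.97 to 7.85). It had 1 UMI in the marrow and 0 in the scale, a thymus level 31.4 times the marrow level (5.47 to 1254) and at least 2.68-fold above the scale.

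**Figure D1:**
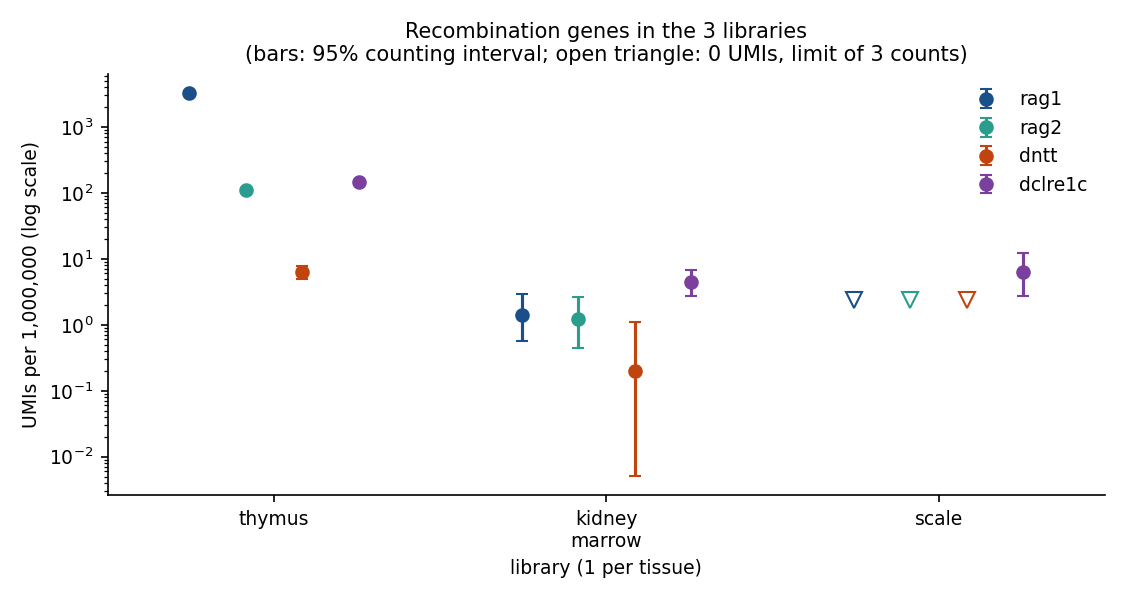
Level of each recombination gene in the 3 libraries, in UMIs per 1000000 on a log axis, with 95% counting intervals; open triangles mark 0 UMIs at the limit of 3 counts. All 4 genes are highest in the thymus, and the scale has UMIs of dclre1c alone among the 4.

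Among genes with at least 200 UMIs in the compared groups together, 25.9% were at least 2-fold higher and 6.95% at least 2-fold lower in the thymus than in the marrow. Against the scale, 24% were at least 2-fold higher and 9.74% at least 2-fold lower in the thymus. The members rag1, rag2 and dclre1c passed this minimum and were past 2-fold in both comparisons, and dntt did not pass it. The 3 passed on their thymus UMIs, so a high ratio followed from passing, and nothing is read from that count.

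Detection was compared after each cell had been thinned to 1000 UMIs, a step that kept 3230 thymus, 983 marrow and 339 scale cells. In the thymus, rag1 was found in 75.3% of thinned cells (exact Clopper-Pearson interval 73.7 to 76.7%), dclre1c in 16.2% (14.9 to 17.5%), rag2 in 11.1% (10.0 to 12.2%) and dntt in 0.37% (0.19 to 0.65%). Without thinning, rag1 was found in 84.9% of thymus cells, dclre1c in 28.2%, rag2 in 21.1% and dntt in 1.49%. Beside these stand 24 thymus cells that should not recombine, 12 erythroid-like and 12 macrophage or dendritic-like, with a median of 1987 UMIs, named from lists of marker genes. Of the 21 that could be thinned, 33.3% had a rag1 UMI (14.6 to 57.0%), 14.3% a dclre1c UMI, 4.76% a rag2 UMI and none a dntt UMI. Their levels were 1139 CPM for rag1 (923 to 1389), 58.7 CPM for rag2 (19.1 to 137) and 70.4 CPM for dclre1c (25.9 to 153), and 1 cell held 30 of their 97 rag1 UMIs. Cells captured together with a thymocyte were not told apart from these 24. Their rag1 level is also no floor for the library, since 636 thymus cells that formed a cluster of their own (cluster 2) held 583 CPM (544 to 624). A level inside the interval of the 24 cells is therefore not read as background by itself. In the marrow, the 13 erythroid-like and 14 neutrophil-like cells held no UMI of any of the 4 genes.

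Thymus cells were divided by coreceptor UMIs in the thinned counts: cd4-1, and cd8a or cd8b. Of the 3230 cells, 322 had cd4-1 alone, 759 had cd8a or cd8b alone, 1298 had both kinds and 851 had neither. These names refer to the thinned counts only. Without thinning, the 851 cells with neither held 489 cd4-1, 223 cd8a and 706 cd8b UMIs. The 322 cells with cd4-1 alone held 101 cd8a and 370 cd8b UMIs. The 759 cells with cd8 alone held 781 cd4-1 UMIs. A class name thus does not show that a coreceptor was absent from a cell. The 4 genes followed 2 patterns across these classes. Levels of rag1, rag2 and dclre1c were highest in cells with both coreceptors and lowest in cells with neither, and dntt had its lowest level in cells with both and its highest in cells with neither.

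For rag1, cells with cd4-1 alone had 2568 CPM (2469 to 2668), cells with cd8 alone 3222 CPM (3151 to 3295), cells with both 6314 CPM (6219 to 6409) and cells with neither 1267 CPM (1237 to 1298). No 2 of these 4 intervals overlapped. Cells with both coreceptors stood at 4.98 times the level of cells with neither (4.84 to 5.13), while cells with cd4-1 alone stood at 0.41 times (0.39 to 0.424) and cells with cd8 alone at 0.51 times (0.50 to 0.52) the level of cells with both. In thinned counts, a rag1 UMI was seen in 95.2% of cells with both coreceptors (93.8 to 96.3%) and in 48.1% of cells with neither (44.7 to 51.5%). The typical thinned cell with both coreceptors held 6 rag1 UMIs, the median, and the highest held 35. The median in cells with neither was 0 and the highest 20.

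For dclre1c the level was 158 CPM in cells with cd4-1 alone (134 to 184.5), 157 CPM in cells with cd8 alone (142 to 174), 266 CPM in cells with both (247 to 286) and 51.5 CPM in cells with neither (45.5 to 58.0). Cells with both exceeded cells with neither 5.16-fold (4.48 to 5.96), and the classes with 1 coreceptor did not differ from each other beyond counting error, at a cd8 over cd4-1 ratio of 0.99 (0.82 to 1.204). For rag2 the level was 95.4 CPM with cd4-1 alone (77.3 to 117), 110 CPM with cd8 alone (96.9 to 124), 176 CPM with both (161 to 193) and 67.7 CPM with neither (60.8 to 75.1). The rag2 contrast between both and neither was 2.61-fold (2.27 to 2.999), below the intervals of the rag1 and dclre1c contrasts.

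The levels of cells with both coreceptors lay above the intervals of the 24 erythroid-like and macrophage or dendritic-like thymus cells for rag1, rag2 and dclre1c alike, and the levels of cells with neither lay inside them. With cd4-1 alone and with cd8 alone, rag1 lay above its interval in the 24 cells and rag2 inside its own. Their dclre1c levels lay above its upper end, 153 CPM, but their own intervals, from 134 and 142 CPM up, reached below it. The class with neither was mixed for rag1: its 198 cells of cluster 5 lay above the rag1 interval of the 24 cells, at 1465 CPM (1403 to 1529), and its 208 cells of cluster 2 far below it, at 272 CPM (232 to 316). How much of its level came from free RNA was not tested. Of all genes with at least 200 UMIs in these classes, 14% were at least 2-fold higher and 10.9% at least 2-fold lower in cells with both than in cells with neither. Again rag1, rag2 and dclre1c were past 2-fold and dntt was not tested. Relative to cells with both, 2.06% of genes were at least 2-fold higher and 3.54% at least 2-fold lower in cells with cd4-1 alone, rag1 among the lower ones and neither rag2 nor dclre1c. In cells with cd8 alone the shares were 3.43% higher and 1.7% lower, and none of the 3 was past 2-fold, though rag1 came near at a log2 difference of -0.97.

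For dntt, cells with neither coreceptor held 60 of the 74 UMIs, or 81.1%, while they held 46.1% of all UMIs. Its level was 4.97 CPM in cells with cd4-1 alone (1.61 to 11.6, 5 UMIs), 2.89 CPM in cells with cd8 alone (1.16 to 5.95, 7 UMIs), 0.74 CPM in cells with both (0.09 to 2.68, 2 UMIs) and 11.4 CPM in cells with neither (8.73 to 14.7). Cells with both thus stood at 0.065 times the dntt level of cells with neither (0.0077 to 0.24). In thinned counts 0 of 1298 cells with both and 9 of 851 cells with neither had a dntt UMI, a share of 1.06% (0.48 to 2.00%). The 24 cells of other types held no dntt UMI, and their 3-count limit is too high to serve as a comparison.

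**Figure D2:**
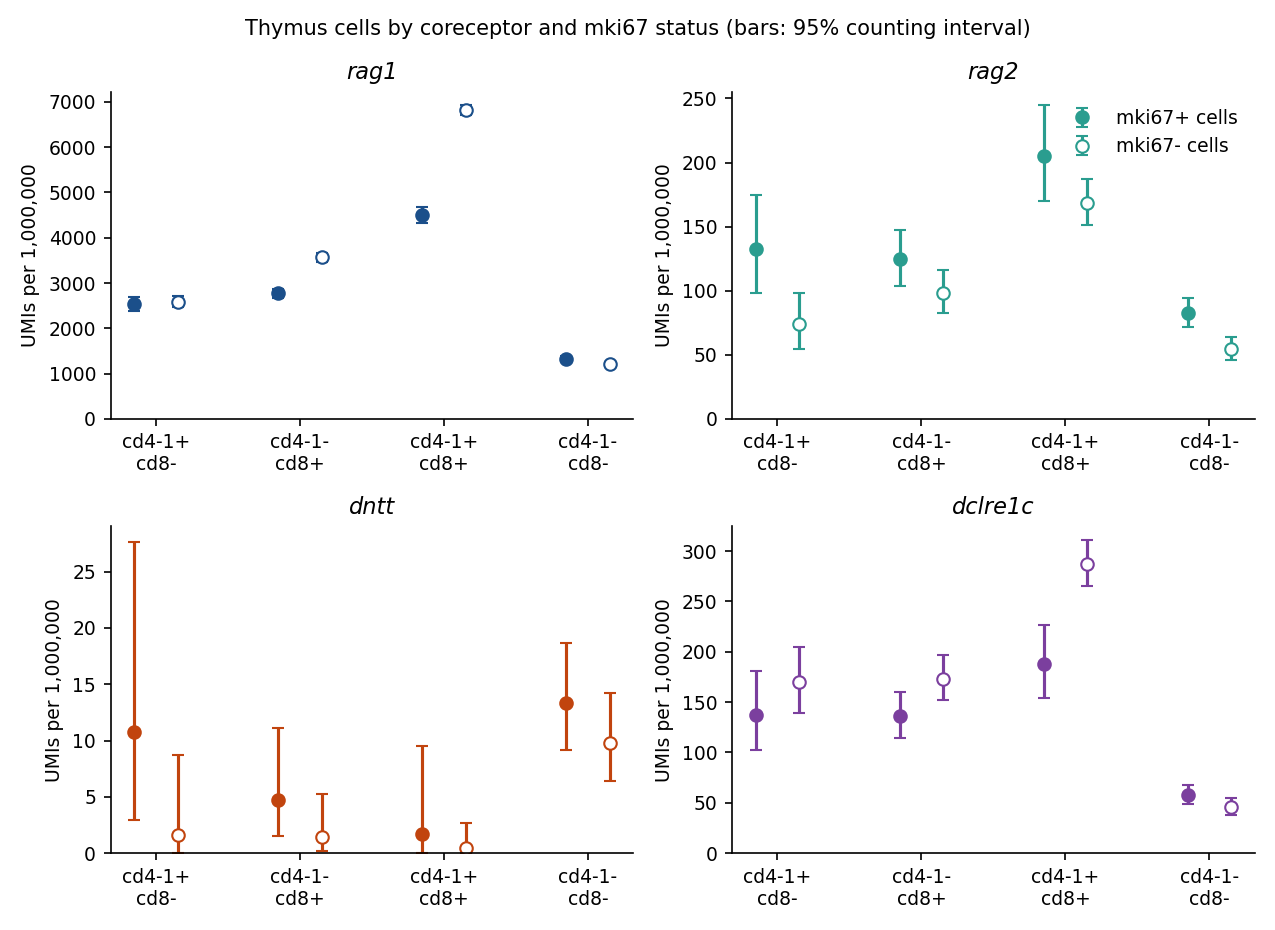
Level of each gene in 8 thymus classes, in UMIs per 1000000 with 95% counting intervals; the horizontal axis gives coreceptor status, filled points are mki67+ cells and open points mki67- cells. Levels of rag1, rag2 and dclre1c peak in cells with both coreceptors, and dntt is highest in cells with neither.

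Classes differed in depth as well as in coreceptors. Median UMIs per cell were 2040.5 with cd4-1 alone, 1994 with cd8 alone, 1494 with both and 4474 with neither. Counted as UMIs per cell instead of CPM, the ratio of both over neither was 1.68 for rag1 (1.63 to 1.73) and 1.74 for dclre1c (1.51 to 2.01). For rag2 it was 0.88 (0.76 to 1.01), within counting error of 1, and for dntt it was 0.022 (0.0026 to 0.082). Restricted to cells of 1000 to 2000 UMIs, with 891 cells with both and 193 with neither, the CPM ratio was 5.01 for rag1 (4.54 to 5.55), 3.04 for rag2 (1.83 to 5.42) and 4.01 for dclre1c (2.56 to 6.65). For dntt only 0 UMIs in cells with both and 2 in cells with neither remained there, a ratio of 0 with an upper bound of 1.245, so its contrast was not beyond counting error at matched depth. Of the 78 dntt UMIs, 51 lay in the 351 thymus cells of 8000 UMIs or more. The share of the contrast that belongs to RNA content per cell was not tested. Against cells with both, dclre1c at 1000 to 2000 UMIs was within counting error of 1. Its ratio was 0.86 with cd4-1 alone (0.64 to 1.15) and 0.82 with cd8 alone (0.66 to 1.01). Per cell, these 2 ratios were 0.89 (0.75 to 1.06) and 0.91 (0.80 to 1.03) for dclre1c. For rag2 they were 0.81 (0.65 to 1.01) and 0.96 (0.82 to 1.11). The rag1 ratios, and those of rag2 at 1000 to 2000 UMIs, stayed below 1.

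Cycling cells were marked by a thinned UMI of mki67, the gene of the proliferation protein Ki-67: 679 mki67+ and 2551 mki67- cells, with medians of 5498 and 1739 UMIs. Per 1000000 UMIs, rag1 was lower in mki67+ cells, at 2182 CPM (2139 to 2226), than in mki67- cells, at 3527 CPM (3483 to 3572), a ratio of 0.62 (0.60 to 0.63). The dclre1c level was 99.6 CPM in mki67+ cells (90.6 to 109) and 157 CPM in mki67- cells (148 to 167), a ratio of 0.64 (0.57 to 0.71). The rag2 level was 112 CPM in mki67+ cells (103 to 123) and 100.1 CPM in mki67- cells (92.7 to 108), a ratio of 1.12 that reached 1 within its interval (0.9985 to 1.26). The dntt level was 9.58 CPM in mki67+ cells (6.93 to 12.9) and 4.50 CPM in mki67- cells (3.06 to 6.39), a ratio of 2.13 (1.31 to 3.49). Of all tested genes, 7.12% were at least 2-fold higher and 5.57% at least 2-fold lower in mki67+ cells, and none of rag1, rag2 and dclre1c was past 2-fold.

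The direction for rag1 and dclre1c depended on the scale. An mki67+ cell held on average 14.4 rag1 UMIs and an mki67- cell 9.52, a per-cell ratio of 1.515 (1.48 to 1.55). The per-cell ratio was 1.555 for dclre1c (1.39 to 1.74), 2.75 for rag2 (2.445 to 3.09) and 5.21 for dntt (3.21 to 8.555). Among cells of 1000 to 2000 UMIs, 130 mki67+ and 1492 mki67-, the CPM ratios moved to 0.91 for rag1 (0.85 to 0.97), 0.89 for dclre1c (0.63 to 1.24) and 1.54 for rag2 (1.05 to 2.20), and dntt had 2 UMIs in mki67+ and 3 in mki67- cells there. When the replication clamp gene pcna marked the cycling cells in place of mki67, with 561 pcna+ and 2669 pcna- cells, the CPM ratio was 0.45 for rag1 (0.44 to 0.46), 0.46 for dclre1c (0.40 to 0.525), 0.75 for rag2 (0.66 to 0.86) and 0.89 for dntt (0.51 to 1.49). The dntt excess in mki67+ cells thus did not hold for pcna+ cells, and the rag2 ratio, 1.12 with mki67, lay below 1 beyond counting error with pcna.

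**Figure D3:**
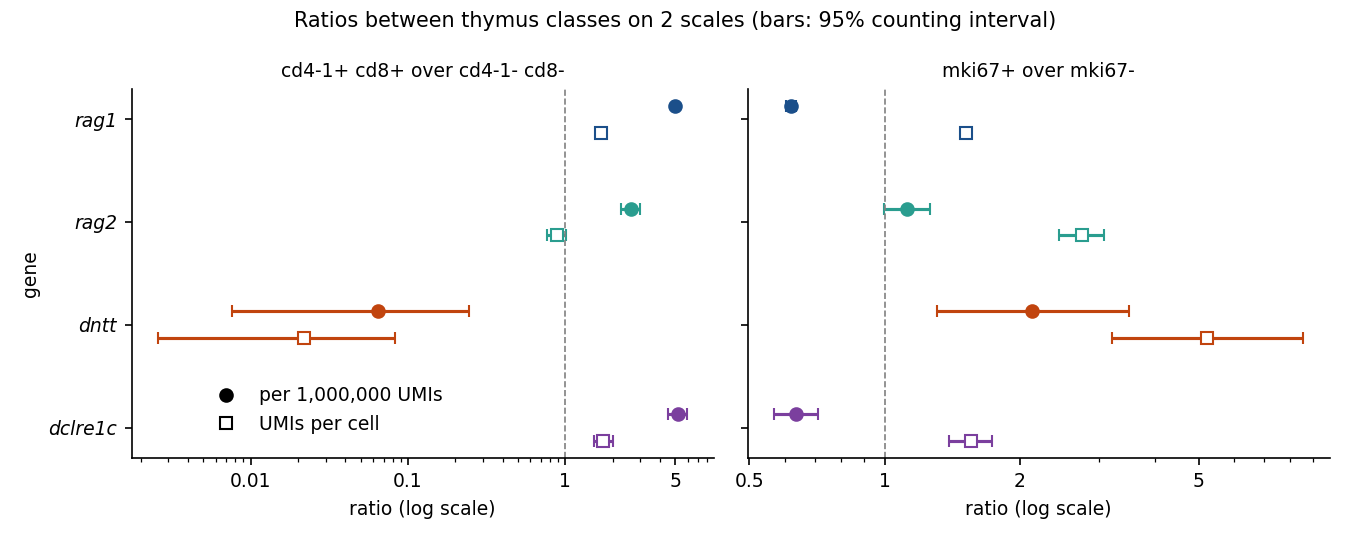
Ratio of each gene between thymus classes, on a log axis, with 95% counting intervals; filled circles are ratios of UMIs per 1000000 and open squares ratios of UMIs per cell, and the dashed line marks 1. For mki67+ over mki67- cells, rag1 and dclre1c lie below 1 on the first scale and above 1 on the second.

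Within coreceptor classes the mki67 contrast was not uniform. Among cells with both coreceptors, rag1 stood at 4502 CPM in mki67+ cells (4331 to 4677) and 6816 CPM in mki67- cells (6705 to 6928), a ratio of 0.66 (0.63 to 0.69), and dclre1c had a ratio of 0.65 (0.53 to 0.80). Among cells with neither, rag1 stood at 1332 CPM in mki67+ cells (1287 to 1378) and 1209 CPM in mki67- cells (1169 to 1251), a ratio of 1.101 (1.05 to 1.16). The rag2 ratio was above 1 in every coreceptor class: 1.79 with cd4-1 alone (1.175 to 2.73), 1.265 with cd8 alone (0.99 to 1.62), 1.22 with both (0.98 to 1.5) and 1.51 with neither (1.21 to 1.87). The dntt UMIs of cells with neither lay on both sides of the division, 33 UMIs in mki67+ cells and 27 in mki67- cells, a ratio of 1.36 (0.79 to 2.36).

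A measure that does not use a cell's total is the number of rag1 UMIs per rag2 UMI, read here between classes and not as a level of 1 gene against the other. It was 19.4 in mki67+ cells (17.8 to 21.3) and 35.25 in mki67- cells (32.7 to 38.1). Among cells with both coreceptors it was 22.0 in mki67+ cells (18.3 to 26.6) and 40.45 in mki67- cells (36.4 to 45.1). At 1000 to 2000 UMIs it was 26 in mki67+ cells (18.6 to 37.6) and 44.25 in mki67- cells (39.1 to 50.2). The mki67+ value was the lower of the pair in all 4 coreceptor classes, with intervals that did not overlap, though the gap was narrow in cells with cd4-1 alone, at 19.2 in mki67+ cells (14.4 to 26.1) and 35 in mki67- cells (26.2 to 47.8), and in cells with neither, at 16.2 in mki67+ cells (14.05 to 18.7) and 22.1 in mki67- cells (18.8 to 26.2). Inside single clusters of similar cells, given below, the direction was not uniform.

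By contrast, rag1 UMIs per dclre1c UMI were 21.9 in mki67+ cells (19.9 to 24.1) and 22.5 in mki67- cells (21.2 to 23.9). They were 23.8 in cells with both coreceptors (22.05 to 25.6) and 24.6 in cells with neither (21.8 to 27.9). The lowest of the 4 coreceptor classes was cells with cd4-1 alone, at 16.25 (13.8 to 19.2). In the 24 cells of other types, rag1 UMIs per rag2 UMI were 19.4 (8.03 to 61.1) and rag1 UMIs per dclre1c UMI 16.2 (7.16 to 45.1), intervals too wide to set apart from the classes.

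**Figure D4:**
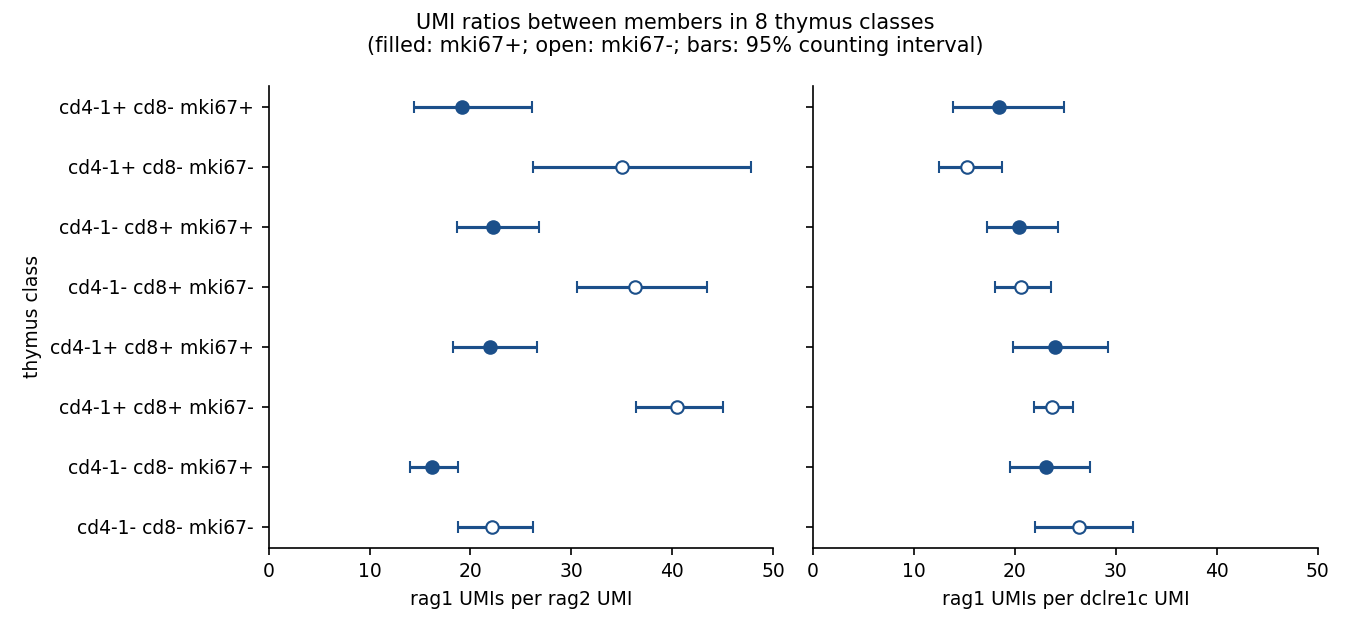
Number of rag1 UMIs per rag2 UMI (left) and per dclre1c UMI (right) in 8 thymus classes, with 95% counting intervals; filled points are mki67+ classes and open points mki67- classes. In the left panel the mki67+ class lies below the mki67- class of the same coreceptor status, and in the right panel the paired intervals overlap.

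Clusters of similar cells, numbered here from 0, gave levels at finer grain. Clustering left out the 4 members, so their levels did not draw the borders, although genes that vary with them did. The highest rag1 level was in cluster 3 (582 cells, led by ppfia3 and notch1a), at 8934 CPM (8744 to 9127), followed by clusters 1 and 0, at 7003 (6823 to 7187) and 6882 CPM (6731 to 7035). Of the cells with both coreceptors, 25.6% lay in cluster 3, 16.2% in cluster 1 and 30.7% in cluster 0. Cluster 8 (244 cells, led by cdh2) had 6226 CPM of rag1 and the highest dclre1c level, 381 CPM (312 to 462). Cluster 3, first for rag1, had a lower dclre1c level of 273 CPM (241 to 309), so its rag1 UMIs per dclre1c UMI came to 32.7 (28.9 to 37.2), against 19.7 (17.8 to 21.8) in cluster 0. Depth differed between clusters. Median UMIs per cell were 812 in cluster 8, 963 in cluster 1 and 1282 in cluster 3. They were 7107 in cluster 6 and 6498 in cluster 10, both described below. Per cell, rag1 came to 14.4 UMIs in cluster 3 and 7.52 in cluster 1. It came to 16.8 in cluster 10 and 15.9 in cluster 6. For dclre1c it came to 0.43 in cluster 8 and 0.97 in cluster 10. The order by CPM thus did not hold per cell.

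Clusters led by replication, histone or mitotic genes differed in which member stood out. Cluster 5 (501 cells, led by replication licensing genes such as mcm4 and cdc6) had 2093 CPM of rag1 (2031 to 2157) and the highest dntt level, 20.3 CPM (14.65 to 27.5), with 42 of the 78 dntt UMIs. Only 20.1% of its 323 thinned cells were mki67+, against 80.8% in cluster 6 and 88.8% in cluster 10. Its 65 mki67+ thinned cells held 13 dntt UMIs, at 36.95 CPM (19.68 to 63.19). Its 258 mki67- thinned cells held 25, at 15.7 CPM (10.16 to 23.18). Cluster 6 (430 cells, led by histone genes) had 1921 CPM of rag1 and 84.4 CPM of rag2 (75.2 to 94.6). Cluster 10 (159 cells, led by the mitotic genes cdc20 and ccnb1) had 2329 CPM of rag1 (2242 to 2420) but 182 CPM of rag2 (158.5 to 209), near the 218 CPM of cluster 3 (189 to 249.7). Per cell, rag2 came to 1.31 UMIs in cluster 10 and 0.35 in cluster 3. The rag1 UMIs per rag2 UMI of cluster 10, 12.8 (11.1 to 14.8), were the lowest among the thymus clusters of at least 100 cells, and cluster 1, at 50.35 (41.8 to 61.15), had the highest. Cluster 6 held a further 22 dntt UMIs and cluster 10 another 12, and clusters 0, 1, 3 and 8 held none. Within cluster 6, rag1 stood at 2026 CPM in mki67+ cells (1973 to 2079) and 1519 CPM in mki67- cells (1432 to 1611), and within cluster 0 at 6677 CPM in mki67+ cells (6019 to 7388) and 6836 CPM in mki67- cells (6663 to 7013). Cluster 6 held 5692 rag1 and 247 rag2 UMIs in mki67+ cells, and 1126 and 53 in mki67- cells. In clusters 6, 10 and 0, rag1 UMIs per rag2 UMI were no lower in mki67+ than in mki67- cells. The mki67+ cells of cluster 0 held only 5 rag2 UMIs. In clusters 1, 3, 5 and 8 the mki67+ value was the lower one. The mki67+ cells of clusters 1, 3 and 8 held only 6, 8 and 7 rag2 UMIs, and those of cluster 5 held 40. Those of clusters 6 and 10 held more, 247 and 182.

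Cluster 9 (214 cells), led by nr4a1 and nr4a3, immediate targets of receptor signalling, kept rag1 at 3327 CPM (3149 to 3513), dclre1c at 206.5 CPM (164 to 257) and rag2 at 133 CPM (99.02 to 174). Cluster 2 (636 cells, led by anks1b and hivep3b) had 583 CPM of rag1 (544 to 624), 18.4 CPM of rag2 (12.0 to 27.0) and 53.8 CPM of dclre1c. Its pooled rag1 interval lay wholly below that of the 24 erythroid-like and macrophage or dendritic-like cells, and its pooled rag2 and dclre1c levels were no higher than theirs. Since the 24 cells are no floor, neither expression nor its absence is read from these pooled levels. Cluster 2 was also not uniform: its 69 cells with both coreceptors had 1954 CPM of rag1 (1722 to 2208), above the interval of the 24 cells. The rag1 level was no higher than that of the 24 cells in cluster 12 (49 cells, sox13 and trgv7 among its leading genes), at 896 CPM (739 to 1076), and cluster 16 (41 cells), at 777 CPM (639.5 to 936). Cluster 2 made up 37.0% of the cells with cd4-1 alone, 20.4% of those with cd8 alone, 5.32% of those with both and 24.4% of those with neither. Inside the class with cd4-1 alone, cluster 2 cells had 426 CPM of rag1 (349 to 514) while the 19 cells of cluster 3 had 9474 CPM (8522 to 10504), so that class joins cells of very unlike rag1 level. In the class with neither, cluster 6 cells had 1307 CPM of rag1 (1259 to 1356) and the 59 cells of cluster 10 had 1634 CPM (1532 to 1742).

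**Figure D5:**
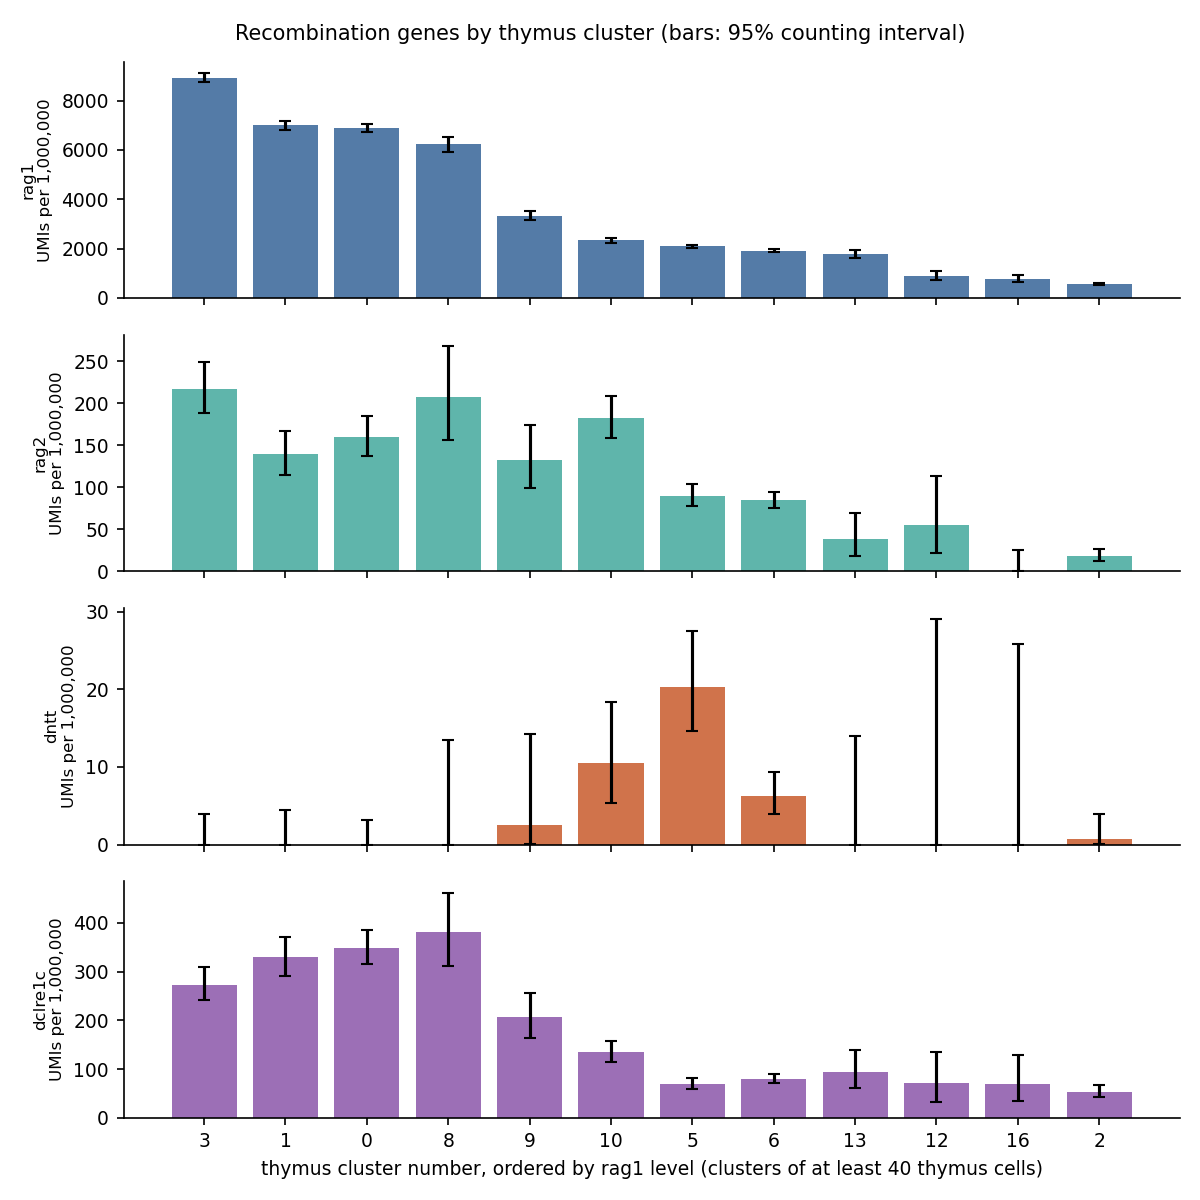
Level of each gene, in UMIs per 1000000 with 95% counting intervals, in the thymus clusters of at least 40 cells, ordered by rag1 level. Clusters 3, 1, 0 and 8 lead for rag1 and dclre1c, cluster 10 has the highest rag2 level outside those 4, and dntt lies mainly in clusters 10, 5 and 6.

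Cells with a thinned UMI of foxp3a, the regulatory T cell factor gene, numbered 45. They had 495 CPM of rag1 (381 to 632), against 3025 CPM in the 3185 cells without foxp3a (2993 to 3057), a ratio of 0.16 (0.13 to 0.21), and held 1 rag2 and 3 dclre1c UMIs. The 147 cells with an nr4a1 UMI had 3231 CPM of rag1 (3057 to 3411) and the 3083 cells without one 2988 CPM (2955 to 3020). For dclre1c the nr4a1+ over nr4a1- ratio was 1.49 (1.17 to 1.87), and for rag2 it was 1.12 (0.82 to 1.502). Mean UMIs per cell were 2729.1 in nr4a1+ and 3559.2 in nr4a1- cells. Counted per cell, the ratio was 0.83 for rag1 (0.78 to 0.88), 1.14 for dclre1c (0.90 to 1.44) and 0.86 for rag2 (0.63 to 1.15). The dclre1c and rag2 ratios per cell lay within counting error of 1.

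Detection in the same cell was compared after thinning. A rag2 UMI was found in 13.8% of cells with rag1 (12.4 to 15.2%) and in 2.88% of cells without rag1 (1.83 to 4.29%), and a dclre1c UMI in 19.5% of cells with rag1 (17.9 to 21.1%) and 6.01% of cells without (4.46 to 7.89%). Among cells with both coreceptors no dclre1c contrast was detectable, at 23.2% of cells with rag1 (20.9 to 25.7%) and 25.4% of the 63 cells without (15.3 to 37.9%). There a dclre1c UMI was seen in 16.5% of cells with rag2 (11.8 to 22.2%) and in 24.7% of cells without rag2 (22.1 to 27.4%). For rag2 the shares in that class were 16.8% of cells with rag1 (14.7 to 18.96%) and 7.94% of cells without (2.63 to 17.6%). These intervals overlapped. In cells with neither coreceptor the rag2 shares were 8.56% with rag1 (6.03 to 11.7%) and 2.26% without (1.09 to 4.12%). None of the 358 thinned cells with rag2 and none of the 522 with dclre1c had a dntt UMI, but with 12 dntt cells in all this allows little to be said.

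Outside the thymus, the UMIs of rag1 and rag2 came from few cells. All 7 marrow UMIs of rag1 lay in 1 cell of 5898 UMIs, which also held 1 rag2 UMI. It had 7 ighm and 1 cd79a UMIs, both B cell genes, and 0 UMIs of the 14 T cell markers. The 7 marrow cells with at least 3 B cell markers held no rag1 or rag2 UMI and 1 dclre1c UMI. The other 5 rag2 UMIs lay in 4 marrow cells with no rag1 UMI. Those 4 cells were among 5 marrow cells with at least 3 genes of a list of 14 meiosis and axoneme genes, chosen after their leading genes were seen, such as sycp1 of the meiotic chromosome axis with 12 to 198 UMIs in the 4. The 5 cells held 5 rag2 UMIs, 6 dclre1c UMIs and 0 rag1 UMIs, while the other 978 marrow cells held 1 rag2 UMI. Because the list came from cells noticed for their rag2 UMIs, this difference followed from the choice, and nothing is read from it. The dntt UMI of the marrow lay in a cell of 38745 UMIs with 100 T cell marker UMIs. In the scale, dclre1c was spread over 8 cells with 1 UMI each, 5 of them in cluster 11, which is led by nitr genes.

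The end joining genes that complete the reaction were described from a list of 9, all matched. In the thymus over the marrow, 4 of the 5 with at least 200 UMIs were at least 2-fold higher and 0 lower, where the shares over all tested genes were 25.9% and 6.95%. All 5 had under 200 UMIs in the marrow and met the minimum through the thymus, so nothing is read from that count, and the values of single genes follow. The DNA polymerase gene polm, a relative of dntt in the same polymerase family, stood at 102 CPM in thymus cells (1264 UMIs), 1.40 CPM in marrow cells (7 UMIs) and 0.78 CPM in scale cells (1 UMI). Its thymus over marrow ratio was 72.6 (35.1 to 181). The catalytic kinase gene prkdc, whose protein activates Artemis, had a ratio of 3.24 (2.60 to 4.08). The Ku subunit genes, whose proteins bind the broken end, had ratios of 3.19 for xrcc5 (2.52 to 4.09) and 2.85 for xrcc6 (2.27 to 3.61). The ligase gene lig4 had a ratio of 0.74 (0.48 to 1.14) and the polymerase gene poll one of 0.98 (0.56 to 1.81), both within counting error of 1.

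Across coreceptor classes these genes parted. Ratios of list genes between thymus classes, here and below, are of CPM. Mean UMIs per cell were 2078.6 in cells with both and 6161.9 in cells with neither. They were 6610.1 in mki67+ and 2699.3 in mki67- cells. Per-cell ratios were not taken for list genes. In cells with both coreceptors over cells with neither, polm was higher, at 182 CPM in cells with both against 43.9 CPM in cells with neither, a ratio of 4.14 (3.53 to 4.86), while xrcc5 had a ratio of 0.42 (0.32 to 0.53), prkdc 0.51 (0.40 to 0.64) and xrcc6 0.80 (0.64 to 0.99). Of the 4 tested, 1 was at least 2-fold higher and 1 at least 2-fold lower, against 14% and 10.9% of all tested genes. The lower one, xrcc5, had 75 UMIs in cells with both and 351 in cells with neither. It met the minimum through cells with neither, so nothing is read from the count of lower genes. In mki67+ over mki67- cells the ratios were 1.78 for prkdc (1.53 to 2.08), 1.955 for xrcc5 (1.66 to 2.31), 1.88 for xrcc6 (1.59 to 2.22) and 0.77 for polm (0.67 to 0.87), none past 2-fold. The median log2 difference of the 4 was 0.87 against -0.08 over all tested genes.

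The paralogues of dclre1c did not follow it across coreceptors. The repair nuclease genes dclre1b and dclre1a had ratios of 0.56 (0.35 to 0.88) and 0.45 (0.21 to 0.87) in cells with both over cells with neither, where dclre1c had 5.16. In the thymus over the marrow, dclre1b had a ratio of 4.09 (2.515 to 7.05) and dclre1a 1.55 (0.9962 to 2.48). The HMGB genes, whose proteins bend DNA and assist Rag cutting in mammals, were at least 2-fold higher in the thymus than in the marrow for 3 of 4, against 25.9% of all tested genes: hmgb2b at 8.35 (7.91 to 8.81), hmgb2a at 5.13 (4.97 to 5.30) and hmgb1b at 3.565 (3.24 to 3.93). The same 3 were at least 2-fold higher in mki67+ than in mki67- cells, hmgb2a by 3.65 (3.58 to 3.725), where 7.12% of all tested genes were, and none of the 4 was past 2-fold between cells with both coreceptors and cells with neither. The break response list had 3 of 8 tested genes at least 2-fold higher and 0 lower in the thymus than in the marrow, near the shares of 25.9% and 6.95% over all tested genes. Of these 8, the histone gene h2afx alone had 200 UMIs or more in the marrow, and its ratio was 49.7 (44.0 to 56.4). The break kinase gene atm was lower in the thymus, at 0.55 (0.44 to 0.70).

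Of the transcription factor genes known from mammals to act on the Rag locus or on T cell identity, 9 of 16 tested were at least 2-fold higher and 2 lower in the thymus than in the marrow, against 25.9% and 6.95% of all tested genes. Of the 9, runx3, bcl11ba and satb1b had 200 UMIs or more in the marrow too, and the other 6 met the minimum through the thymus, so nothing is read from that count. In cells with both coreceptors over cells with neither, 6 of 12 were at least 2-fold higher, against 14% of all tested genes, among them the E protein genes tcf12 at 2.98 (2.49 to 3.57), tcf3a at 2.27 (1.73 to 2.99) and tcf3b at 2.06 (1.84 to 2.32). On the same contrast runx3 stood at 3.05 (2.885 to 3.23), satb1b at 3.09 (2.84 to 3.36) and bcl11bb at 3.24 (2.84 to 3.70), and gata3 was the 1 gene past 2-fold lower, at 0.22 (0.19 to 0.26), against 10.9%. With 154 UMIs in cells with both and 1348 in cells with neither, gata3 met the minimum through the latter. Nothing is read from that count of lower genes. In 1298 cells with both and 851 with neither, UMIs were 314 and 205 for tcf12 and 118 and 101 for tcf3a. They were 601 and 566 for tcf3b, 3176 and 2023 for runx3, 1436 and 904 for satb1b and 598 and 359 for bcl11bb. What the unlike depth of these classes adds to the CPM ratios was not tested. The median log2 difference of the 12 was 0.99, against 0.11 over all tested genes. In mki67+ over mki67- cells none was at least 2-fold higher and tcf12, at 0.44 (0.37 to 0.53), and foxo3b, at 0.34 (0.24 to 0.47), were at least 2-fold lower, 2 of 14 tested against 5.57% of all tested genes. In mki67+ cells tcf12 had 176 UMIs and foxo3b 46. Both met the minimum through mki67- cells, so nothing is read from that count.

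The genes most alike each member were taken by Pearson's r of log2(CPM + 10) over 10 groups: the 8 thymus classes, the marrow and the scale, which share libraries and differ in depth, among 5046 genes with at least 200 thymus UMIs. For rag1 they were arpp21 (r = 0.9988), tenm3, gfp, msi2a and bcl11ba, and for rag2 they were top1l (0.9955), arid2, h3f3b.1, desi2 and atrip. For dclre1c they were bcl11bb (0.9952), fam117aa, ccdc50, jag1a and lck. For dntt they were trdc (0.9616), the T cell receptor delta constant gene, then cnbpa, eif4a3, prdx4 and snrnp40. Cells were sorted on the reporter gfp, bright in the thymus and dim elsewhere, so its step between tissues cannot be told apart from the sort. The reporter is under control of lck, which stood at 418.6 CPM in thymus cells, 92.03 in marrow cells and 91.47 in scale cells. Its step cannot be told apart from the sort either. When only the 8 thymus classes were used, gfp was not among the first 5 for rag1, nor lck among those for dclre1c. With 78 thymus UMIs, dntt itself was under that minimum. Of its 74 UMIs in classed cells, 60 lay in cells with neither coreceptor, so every r of dntt, here and below, rests on few counts. Over the 8 thymus classes alone, where the step between tissues is absent, rag1 had an r of 0.96 with dclre1c, 0.98 with polm, 0.82 with rag2 and -0.84 with dntt, and of each 5 named genes 2 stayed among the first 5 for rag1, 2 for rag2, 1 for dclre1c and 0 for dntt. In cells with both coreceptors over cells with neither, trdc itself had a ratio of 0.24 (0.17 to 0.32).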

How the data were processed

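Droplet libraries of thymus, kidney marrow and scale were deposited as raw UMI counts per gene and cell barcode. Per the submitters' processing notes, the counts were made with Cell Ranger 6.0.0 on GRCz11 and the notes also name Seurat 4.3.0, while the header of the deposited marrow counts names another Cell Ranger release. A barcode was kept as a cell from 500 UMIs and 250 genes on, if no more than 10% of its UMIs were mitochondrial. The marrow counts hold 672506 barcodes, so its minimum was set from its 3000 largest barcodes (the 99th percentile divided by 10), giving 1394.89 UMIs. Scrublet at an expected rate of 0.05 marked 16 scale cells, which were removed, and 0 thymus and 0 marrow cells, so doublets there are not controlled for.

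Levels are UMIs pooled over cells per 1000000, with exact Poisson 95% intervals. Ratios carry exact conditional binomial intervals, and shares exact Clopper-Pearson intervals. Class status was read from cells thinned to 1000 UMIs (seed 1), and 1344 shallower thymus cells stayed out. A gene at 0 was also set at 3 counts, which can give a higher ratio than the lower end of the exact interval. Counts past 2-fold used genes with at least 200 UMIs and 3 added counts per group. Clusters came from scanpy 1.11.5 (2000 variable genes without the members, 30 components, resolution 1). The calculations were tested on simulated data. A promoter search was not run, since no sequence was used here.

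All members of the gene set are described, and list genes are named where past 2-fold or best covered. Members and lists were chosen with earlier results of these data known. Python 3.11.15, numpy 2.4.6 and scipy 1.17.1 were used. Alternatives covered cell minimums, thinning, weighting of cells, marker genes and gene minimums.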

Additional observations from a re-analysis of the deposited data

Results flagged for a closer look

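Signal of the recombination genes appeared in barcodes outside the cells described. Among 123 thymus barcodes with mitochondrial UMIs over the limit, rag1 stood at 1561 CPM (181 UMIs, 1342 to 1806), rag2 at 69.01 CPM (8 UMIs, 29.8 to 136) and dclre1c at 60.38 CPM (7 UMIs, 24.3 to 124). Among 518348 marrow barcodes with under 100 UMIs, rag1 stood at 5.127 CPM (20 UMIs, 3.13 to 7.92), rag2 at 1.025 CPM (4 UMIs, 0.28 to 2.625) and dclre1c at 4.614 CPM (18 UMIs, 2.735 to 7.29). The rag1 level of these marrow barcodes lay above that of the 983 marrow cells, 1.403 CPM (0.56 to 2.89), and the rag2 and dclre1c levels lay within counting error of theirs.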

How the results depend on the processing

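No paired analysis was possible because each tissue has 1 library, and no replicate was left out for the same reason. Over all alternatives, 89 of the main values were labelled as the same, 51 as moved and 4 as reversed. Among the other values, 45 were labelled as the same, 40 as moved and 1 as reversed. These labels undercount passages to the other side of 1, since more such values are listed here and below than were labelled reversed. Examples are the rag2 ratio of both over neither per cell, 0.8791, and the dntt ratio with pcna, 0.8873. For mki67+ over mki67- cells, rag1 and dclre1c per cell passed beyond counting error. The rag2 ratio there, 1.122 with an interval that reached 1, was 0.7524 with pcna (0.66 to 0.86), below 1 beyond counting error. The cause of these changes was not tested.

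For thymus levels, a minimum of 1000 UMIs per cell gave 2996 CPM for rag1 and 134.3 CPM for dclre1c, and giving each cell the same weight gave 4891 CPM for rag1, 132.7 for rag2, 3.781 for dntt and 224.7 for dclre1c. Without the highest cell, marrow rag1 and dntt were 0. Unthinned thymus shares were 84.87% for rag1, 21.1% for rag2, 1.487% for dntt and 28.2% for dclre1c, and thinning to 2000 UMIs gave 18.84% for rag2, 1.057% for dntt and 21.64% for dclre1c.

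The ratio of cells with both coreceptors over cells with neither kept its direction for rag1 and dclre1c. For rag1 it was 4.272 with thinning to 2000 UMIs, 4.692 without thinning, 5.981 with 2 UMIs for presence, 1.681 per cell and 5.636 in mki67- cells. For dclre1c it was 6.351 without thinning, 6.154 with 2 UMIs, 1.741 per cell, 6.254 in mki67- cells and 4.009 in cells of 1000 to 2000 UMIs, a range added after seeing the data. For rag2 it was 0.8791 per cell, below 1 but within counting error of it (0.76 to 1.01), and 3.085 in mki67- cells and 3.039 at 1000 to 2000 UMIs. For dntt it was 0 with 2 UMIs, at 1000 to 2000 UMIs and with cd8b alone, since cells with both then held no dntt UMI. At 1000 to 2000 UMIs this rests on 0 against 2 UMIs, with an upper bound of 1.245, and shows no contrast beyond counting error.

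For cells with cd4-1 alone over cells with both, rag1 was 0.321 at 2000 UMIs, 0.3223 unthinned, 0.4292 with another seed, 0.389 with 2 UMIs, 0.4283 with equal weights, 0.6115 per cell, 0.4409 at 1000 to 2000 UMIs, 0.4455 with cd8b alone and 0.3795 in mki67- cells. The rag2 ratio was 0.3989 at 2000 UMIs, 0.3885 unthinned, 0.4266 with 2 UMIs and 0.813 per cell. The dclre1c ratio was 0.3889 at 2000 UMIs, 0.8939 per cell and 0.8619 at 1000 to 2000 UMIs. The last 2 lay within counting error of 1, as did the rag2 ratio per cell. The dntt ratio, from 5 and 2 UMIs, was 0 with another seed. For cells with cd8 alone over cells with both, rag1 was 0.4354 at 2000 UMIs, 0.5276 unthinned, 0.5626 with another seed, 0.5497 with 2 UMIs, 0.5867 with equal weights, 0.7849 per cell, 0.693 at 1000 to 2000 UMIs and 0.5319 with cd8b alone. The rag2 ratio was 0.5003 unthinned and 0.9557 per cell, and the dclre1c ratio 0.4015 at 2000 UMIs, 0.6776 with equal weights, 0.9087 per cell and 0.8209 at 1000 to 2000 UMIs. Both per-cell ratios, and dclre1c at 1000 to 2000 UMIs, lay within counting error of 1.

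For mki67+ over mki67- cells, counting per cell reversed rag1 to 1.515 and dclre1c to 1.555 and gave 2.748 for rag2 and 5.211 for dntt. With pcna in place of mki67 the ratio was 0.4514 for rag1, 0.7524 for rag2, 0.4606 for dclre1c and 0.8873 for dntt (0.51 to 1.49). With top2a it was 0.7177 for rag1 and 1.291 for dntt. At 1000 to 2000 UMIs it was 0.9066 for rag1, 1.543 for rag2, 0.8939 for dclre1c and, from 2 UMIs in mki67+ and 3 in mki67- cells, 7.67 for dntt (0.64 to 66.96). Thinning to 2000 UMIs gave 0.7195 for rag1 and 0.7679 for dclre1c, and no thinning gave 0.4802 for rag1, 0.9502 for rag2 and 0.4889 for dclre1c. For rag1 it was 0.6508 with 2 UMIs, 0.6523 with equal weights and 0.6605 in cells with both coreceptors. For dntt it was 3.76 with equal weights and 3.609 in cells with both.

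With a minimum of 50 UMIs per gene, genes at least 2-fold lower numbered 1101 for thymus over marrow (426 at 200 UMIs) and 1424 for thymus over scale (530). For cells with both over neither, 1099 were higher (524) and 876 lower (407). For cd4-1 alone over both, 228 were higher (42) and 167 lower (72), and for cd8 alone over both, 306 higher (93) and 144 lower (46). For mki67+ over mki67- cells, 561 were higher (339) and 778 lower (265).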
